A study of Danio rerio with 18 samples.

Results

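A set of 995 cytosines in polyadenylated zebrafish RNA, nearly all in genes annotated as protein coding where a biotype was found, carried 5-methylcytosine (m5C) calls in the deposited lists of 2 and 4 hours post fertilisation (hpf) and in none of the lists of the 7 other stages. They were chosen by that listing and by a methylation level under 50% at 4 hpf, and they are called window sites here, a name for the listing alone, since a site missing from a list may be unmethylated, under a minimum or filtered out. They made up 11% of the 9047 distinct sites in the 9 stage lists and 21.7% of the 4587 sites listed at both 2 and 4 hpf, and they lay in 871 genes. Another 84 sites with the same listing had a level of at least 50% at 4 hpf and were left out by the rule. The other 3592 sites listed at both stages are called the remaining shared sites and serve for comparison.

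The study sequenced bisulfite-treated, oligo(dT)-selected RNA of AB zebrafish (wild type) over 9 stages, of which 0, 2, 4 and 6 hpf are used here. Embryos came from natural crosses and were pooled per sample, no genetic change or agent was applied, and each stage had 2 libraries, 18 in all. After bisulfite an unmethylated cytosine is sequenced as T and a methylated one as C, so the level of a site is the percentage of C in the reads over it, and coverage is the number of C plus T reads. Both libraries of a stage are combined in its list, so no spread between replicates can be given, and intervals reflect counting error within a site or the spread over sites.

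Before its own genome becomes active the zebrafish embryo lives on mRNA that the mother stored in the egg. This maternal mRNA is cleared while zygotic transcription starts, a handover known as the maternal-to-zygotic transition, and in this fish broad zygotic transcription begins in the blastula. The methyltransferases NSUN2 and NSUN6 write most m5C known in animal mRNA, and YBX1 has been described as a protein that binds it in zebrafish embryos. In whole embryos, fewer cells with a transcript and less of it per cell cannot be told apart.

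Window sites were thinly covered and weakly methylated beside the remaining shared sites. Their median coverage at 4 hpf was 101 reads (95% interval 96.0 to 108, n = 995), against 266 reads (254 to 280, n = 3592) at the remaining shared sites. At 2 hpf the medians were 84.0 reads (78.0 to 88.0) at window sites and 230 reads (218 to 242) at the remaining shared sites. Coverage of single window sites ran between 21 and 6153 reads at 4 hpf and between 21 and 6633 reads at 2 hpf. At least 100 reads at both stages were present at 377 window sites (37.9%) and at 2705 of the remaining shared sites (75.3%). Since a list holds no site under 20 reads, coverage takes part in the choice of the members, and this difference is given as a description.

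The median m5C level of window sites was 16.1% (15.5 to 16.8) at 4 hpf and 17.3% (16.5 to 18.1) at 2 hpf. The middle 50% of the sites had levels from 12.3% to 23.2% at 4 hpf and from 12.9% to 25.8% at 2 hpf. Among the 2888 remaining shared sites that also had a level under 50% at 4 hpf, the median was 20.4% at 4 hpf and 21.1% at 2 hpf. At 4 hpf, 436 window sites (43.8%) lay between 10% and 15%, where 10% is the lowest level a list can hold. So did 757 of the remaining shared sites (21.1% of all 3592), and all of these 757 are among the 2888. The Wilson 95% interval of the level reached below 10% at 1 or both stages for 575 window sites (57.8%). It did so for 769 remaining shared sites, 21.4% of all of them and 26.6% of the 2888 under the same limit. Just 53 window sites (5.33%) combined at least 100 reads with a level of at least 20% at both stages, and 1425 remaining shared sites (39.7%) did. The last share is of all remaining shared sites, including those of 50% or more at 4 hpf, which the rule bars from the set. Sites near 10% are also more easily missing from another list, so the low levels are partly set by the rule.

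**Figure D1:**
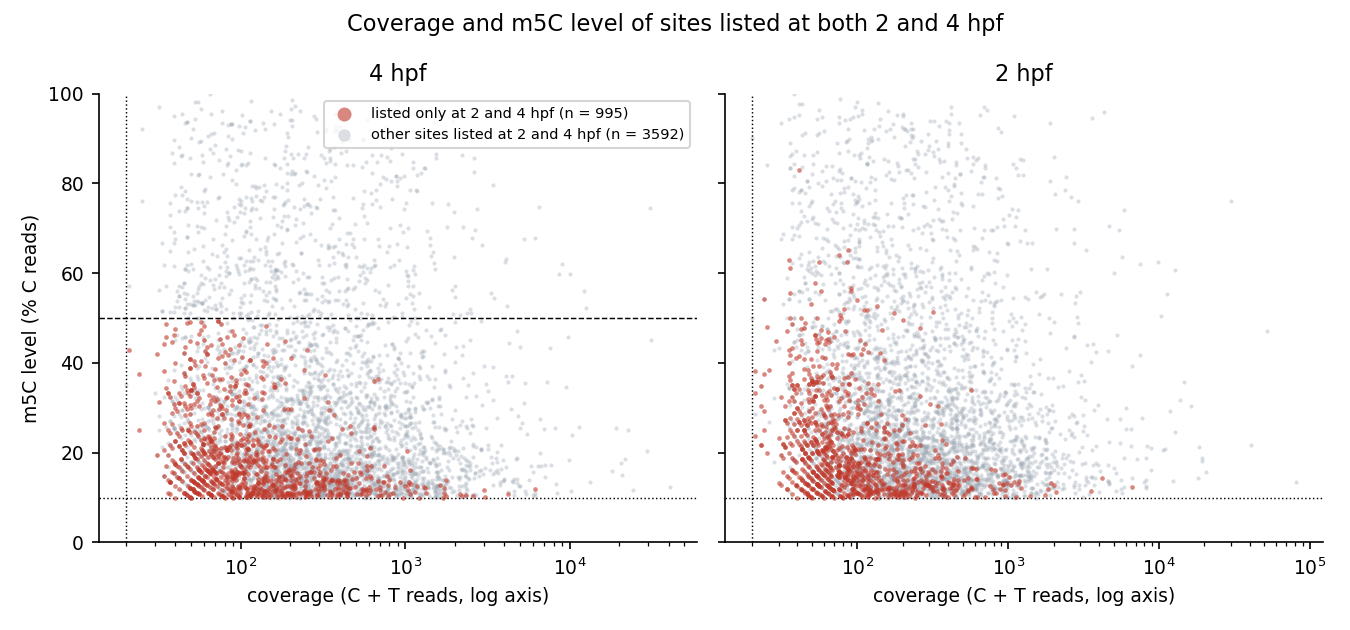
Coverage in C plus T reads (log axis) and m5C level in % of the 995 window sites (red) and the 3592 remaining shared sites (grey) at 4 hpf (left) and 2 hpf (right), 1 point per site with libraries combined. Dotted lines mark the lowest coverage (20 reads) and level (10%) in the lists and the dashed line the 50% limit of the rule, and red points crowd towards the lower left corner of both panels.

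Level and coverage ran opposite ways within the set. The 120 window sites with 20 to under 50 reads at 4 hpf had a median level of 22.7%. The median was 18.2% for the 370 sites with 50 to under 100 reads, 16.0% for 259 sites with 100 to under 200, 13.6% for 168 sites with 200 to under 500, and 12.2% for the 78 sites with 500 reads or more. In the same bands, the 2888 remaining shared sites under the same 50% limit had medians of 25%, 22.5%, 21.2%, 19.8% and 19.0%. Both measures share the same reads and the 10% minimum applies in every band, so the order of the medians is given without a test. The medians of window sites fell more steeply, and the rule takes part in this. A deeply covered site with a high level more easily passes the minimums of another list, and is then no window site. Nothing is therefore read from the difference between the groups. Of the 78 deepest window sites, 62 had under 15% C reads at 4 hpf.

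The 5 window sites with the highest coverage summed over both stages were all close to the 10% minimum. The site in rbm4.3 (chromosome 7, position 23960221), an RNA-binding protein of the splicing-factor RBM4 family, had 733 C reads among 6153 (11.9%) at 4 hpf and 813 among 6633 (12.3%) at 2 hpf. It was the only listed site of its gene, and because the gene is numbered as a member of a gene cluster, its reads are less certain to come from a single copy. A site of slc38a7 (chromosome 7, 53260881), an amino acid transporter, had 456 of 4204 reads as C (10.8%) at 4 hpf and 594 of 4158 (14.3%) at 2 hpf. For tlk2 (chromosome 3, 19573622), a kinase of chromatin assembly, the counts were 356 of 3035 reads (11.7%) at 4 hpf and 260 of 2010 (12.9%) at 2 hpf. The transcription factor gene sox11b (chromosome 20, 30060553) had 307 of 3040 (10.1%) at 4 hpf and 185 of 1759 (10.5%) at 2 hpf. The fifth, in ENSDARG00000052673 (chromosome 16, 50603218), had 185 of 1784 (10.4%) at 4 hpf and 410 of 3552 (11.5%) at 2 hpf. At 4 hpf the counting interval of the level ran from 11.1% to 12.7% for rbm4.3 and from 9.04% to 11.9% for ENSDARG00000052673.

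The opposite edge of the set was the 50% limit at 4 hpf. The members just inside it were the sites in cyb561d2 and dagla, each with 36 of 73 reads (49.3%), and in tulp4a with 28 of 57 reads (49.1%). The sites just outside were those in dicer1 (27 of 54 reads, 50%), which encodes the nuclease that matures miRNAs, in fam65b (24 of 48, 50%) and in pygo2 (25 of 49, 51.0%), a Wnt co-activator. The counting intervals on both sides of the limit overlap, with 38.2% to 60.5% for dagla and 37.1% to 62.9% for dicer1.

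The rule sets no upper limit on the level at 2 hpf, and 26 window sites had 50% or more there. The highest was in yy1a, the gene of the zinc finger transcription factor Yin Yang 1, with 82.9% of 41 reads. It was followed by aldoaa (65.1% of 86 reads), a glycolytic aldolase, cyb561d2 (64.0% of 75), jarid2b (62.9% of 35), a Polycomb cofactor, fam63b (62.5% of 56) and znf654 (62.4% of 85). The RNA helicase gene DHX29 had 61.1% of 36 reads and the keratin gene krt8 56.0% of 91 reads at 2 hpf. At 4 hpf these sites had 18.2% (yy1a), 40.7% (aldoaa), 49.3% (cyb561d2), 34.0% (jarid2b), 45.8% (fam63b), 44.1% (znf654), 40.8% (DHX29) and 42.9% (krt8). A limit on the level at 4 hpf alone keeps such sites only where the later value is the lower one, so their common direction is set by the rule.

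Between the 2 stages the levels of most window sites were close. The median change, 4 hpf minus 2 hpf, was -0.907 percentage points (-1.19 to -0.476), against -0.574 points (-0.729 to -0.395) at the remaining shared sites. Under the same 50% limit at 4 hpf, the 2888 remaining shared sites had -0.735 points (-0.954 to -0.586). The level was lower at 4 hpf at 582 window sites, higher at 410 and equal at 3. The 95% interval of the change held 0 at 904 window sites (90.9%). Each of the 4587 shared sites was tested by a two-sided Fisher's exact test on its C and T reads, with p-values adjusted over all of them after Benjamini and Hochberg. This gave an adjusted p under 0.05 for 3 window sites with a higher level at 4 hpf and 16 with a lower one. Over all shared sites 1.92% were called higher and 4.03% lower, 5.95% in all, and the window sites came to 1.91% in all. The rule used these levels, so nothing is read from the counts. Without adjustment 83 window sites had a p under 0.05. With a variance that allows for extra spread between stages (a beta-binomial z test), 0 were called higher and 4 lower, beside 0.305% and 0.589% of all shared sites (0.894% in all). That spread was fitted to the same differences between 4 and 2 hpf over all shared sites, and not to replicates.

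**Figure D2:**
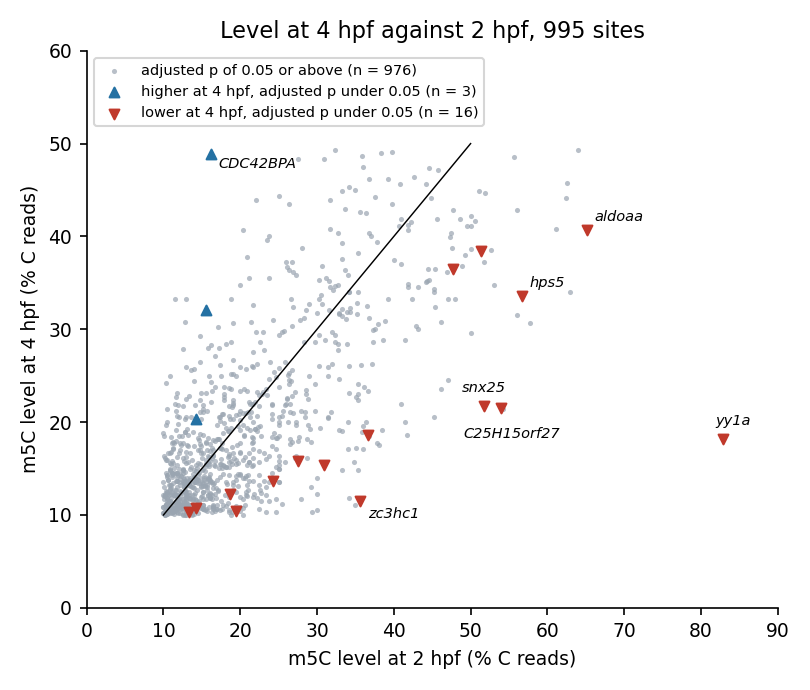
m5C level at 4 hpf (vertical axis) against that at 2 hpf (horizontal axis), in % C reads, for the 995 window sites, 1 point per site. Triangles mark the 3 sites called higher and 16 called lower at 4 hpf by Fisher's exact test, the line marks equal levels, and the yy1a site stands far to the right with 18.2% at 4 hpf and 82.9% at 2 hpf.

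The yy1a site (chromosome 17, 30921983, minus strand) changed most. It had 30 C and 135 T reads at 4 hpf, against 34 C and 7 T reads at 2 hpf. Its level was therefore 18.2% (13.0 to 24.8) at 4 hpf and 82.9% (68.7 to 91.5) at 2 hpf, while coverage was 4.02 times as high at 4 hpf. Read counts also depend on the depth of each stage's libraries, which is unknown here, so C and T reads are not compared between stages. The yy1a site was the only listed site of its gene, and its change of -64.7 points gave adjusted p-values of 3.13e-12 (Fisher's exact test) and 1.74e-10 (beta-binomial). With 82.9% at 2 hpf, the rule could keep it only with a fall, so the p-values are given as a description.

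The other falls called by both tests were in C25H15orf27, snx25 and plrg1. The site in C25H15orf27 (chromosome 25, 33772748) had 21.5% of 93 reads at 4 hpf and 54.0% of 100 at 2 hpf. In snx25 (chromosome 14, 4164680), a sorting nexin of endosomes, it was 21.7% of 143 reads at 4 hpf and 51.8% of 110 at 2 hpf. The splicing factor gene plrg1 (chromosome 1, 24522300) had 15.4% of 421 reads at 4 hpf and 30.9% of 304 at 2 hpf, with adjusted p-values of 7.97e-05 (Fisher's exact test) and 0.0322 (beta-binomial). Coverage was 0.930 times as high at 4 hpf as at 2 hpf at the C25H15orf27 site, 1.30 times at snx25 and 1.38 times at plrg1. In the same order, C reads at 4 and 2 hpf were 20 and 54, 31 and 57, and 65 and 94. Library depth is unknown, so nothing is read from these counts between stages.

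Further large falls were called by Fisher's exact test and not by the beta-binomial test. They were in aldoaa (chromosome 3, 39568536; 40.7% of 113 reads at 4 hpf, 65.1% of 86 at 2 hpf), in zc3hc1 (11.5% of 52 reads at 4 hpf, 35.6% of 118 at 2 hpf), which encodes a protein of the nuclear envelope, and in hps5 (33.6% of 134 reads at 4 hpf, 56.7% of 90 at 2 hpf), a factor for lysosome-related organelles. Among sites with at least 100 reads at both stages, unc45a, a myosin chaperone, had the third largest fall, with 37.2% of 325 reads at 4 hpf and 51.7% of 116 at 2 hpf. It was not past the threshold. At the deeply covered slc38a7 site the level fell by 3.44 points, with an adjusted p of 1.42e-04 in Fisher's exact test and of 0.853 in the beta-binomial test.

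The 3 sites called higher by Fisher's exact test lay in ppp2r5ea, wdr24 and CDC42BPA. The phosphatase subunit gene ppp2r5ea (chromosome 20, 20320480) had 20.3% of 1032 reads at 4 hpf and 14.2% of 612 at 2 hpf, with an adjusted p of 0.0416. The wdr24 site at 39160720 on chromosome 24, in a gene for a subunit of the GATOR2 complex of nutrient sensing, had 32.1% of 243 reads at 4 hpf and 15.6% of 96 at 2 hpf. A second window site of the same gene, at 39151683, went the other way, with 18.6% of 156 reads at 4 hpf and 36.6% of 82 at 2 hpf, and was called lower (adjusted p = 0.0478 by Fisher's exact test). The kinase gene CDC42BPA had 48.9% of 47 reads at 4 hpf and 16.2% of 37 at 2 hpf. The beta-binomial test gave none of these a p under the threshold. Among sites with at least 100 reads in each list large rises were in prdm9 (33.3% of 108 reads at 4 hpf and 18.8% of 112 at 2 hpf), a histone methyltransferase, and in ppp6r2b (28.0% of 125 and 15.8% of 133), and neither passed Fisher's exact test.

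The coverage of window sites was higher at 4 hpf than at 2 hpf at 686 of them (68.9%), against 64.0% of the remaining shared sites, and the median ratio of 4 to 2 hpf was 1.21 (1.17 to 1.26), against 1.15 (1.13 to 1.17). Among shared sites that a neighbouring stage also lists, the ratio varied with the stage. Those also listed at both 0 and 6 hpf (n = 1715) had a median ratio of 1.17 (1.14 to 1.19), close to that of the window sites. Those also listed at 0 hpf and not at 6 hpf (n = 1227) had 1.01, and those also listed at 6 hpf and not at 0 hpf (n = 509) had 1.5. The 100 window sites with at least 2 times the coverage at 4 hpf had a median change of level of -2.07 points (-3.62 to -0.554). The 11 sites with a ratio under 0.5 had -3.10 points (-7.12 to 8.42). The 602 sites with a ratio from 1 to under 2 had -0.936 points (-1.23 to -0.370), and the 282 sites with a ratio from 0.5 to under 1 had -0.455 points (-1.13 to -0.0785). These intervals overlap, and the medians follow no order with the ratio.

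Most genes with a window site had no other site in the lists of the stages next to 2 and 4 hpf. Another site was listed at 0 hpf in 273 of the 871 genes (31.3%, Wilson interval 28.4 to 34.5) and at 6 hpf in 217 (24.9%, 22.2 to 27.9). In 151 genes (17.3%) both stages listed another site, in 122 only 0 hpf, in 66 only 6 hpf, and in 532 (61.1%, 57.8 to 64.3) neither did. Of these 532 genes, 343 had no listed site at any stage but the 1 window site, 148 had further sites at 2 or 4 hpf that are not window sites, and 11 had a site at 8 hpf or later. A site at 8 hpf or later was present in 69 of all 871 genes (7.92%).

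Counted by site, the share with another site of the gene at 0 hpf was 31.0% for window sites (28.2 to 33.9) and 51.8% for the remaining shared sites (50.2 to 53.5). At 6 hpf the shares were 25.1% (22.5 to 27.9) and 38.3% (36.7 to 39.9). Neither stage listed another site for 60.7% of window sites and 42.7% of the remaining shared sites. The window site was the only listed site of its gene in 34.5% of cases, close to the 31.3% of the remaining shared sites. By the rule window sites are missing at 0 and 6 hpf, while most remaining shared sites are listed at 1 of these stages or both. Sites of 1 gene share its transcript and its coverage, and the remaining shared sites are more deeply covered. A gene with several sites is counted several times, and the intervals treat its sites as independent, so they may be too narrow. No share counted by gene is given for the remaining shared sites. The listing thus takes part in the contrast, and no test was made of these shares.

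Within the set, coverage and level differed with the other sites of the gene. Window sites whose gene had other sites at both 0 and 6 hpf (n = 167) had a median coverage of 138 reads at 4 hpf and 108 at 2 hpf, with median levels of 13.7% (13.0 to 14.5) and 14.4% (13.3 to 15.4). Those whose gene had other sites at neither stage (n = 604) had 97.0 reads at 4 hpf and 76.0 at 2 hpf, with levels of 17.3% (16.3 to 18.4) and 18.5% (17.4 to 19.1). Those with another site at 0 hpf only (n = 141) were no deeper at 4 hpf than this last class, at 95 reads, with a level of 15.2% (13.4 to 17.2), and those with another site at 6 hpf only (n = 83) had 107 reads and 16.4% (14.5 to 18.8). The ratio of coverage at 4 hpf to that at 2 hpf had a median of 1.4 where only 6 hpf listed another site (n = 83) and 1.05 where only 0 hpf did (n = 141). The rule keeps only sites missing at 0 and 6 hpf, where a list requires minimums of reads and level. Where a gene is covered well enough to list other sites there, a low level more easily keeps a site in the set. Elsewhere a site can also be missing through low coverage, at any level. Listing thus takes part in these differences, and nothing is read from them.

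Other sites of the same transcripts give a view of coverage at 0 and 6 hpf, where the window sites have no value. In 227 genes at least 1 other site was listed at both 0 and 2 hpf, and the median ratio of its coverage, 0 over 2 hpf, was 0.442 (0.376 to 0.5). In the 2141 genes with such sites and no window site it was 0.751 (0.709 to 0.796). Coverage was lower at 0 hpf than at 2 hpf in 181 of the 227 genes (79.7%) and in 1300 of the 2141 (60.7%). At 6 over 4 hpf the medians were 0.464 (0.407 to 0.527) in 205 genes with a window site and 0.487 (0.462 to 0.506) in 1605 genes without one. Absolute reads depend on the depth of each stage's libraries, which is unknown here, so the comparison is between the gene classes and not between stages. The sites enter these ratios only where they are listed with at least 20 reads at both stages, and the part of sequencing depth and of mRNA amount in them was not tested. A gene has a window site only if that site is missing at 0 and 6 hpf, where a list requires 20 reads. Low coverage at these stages thus takes part in the choice of the genes, and nothing is read from the contrast.

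**Figure D3:**
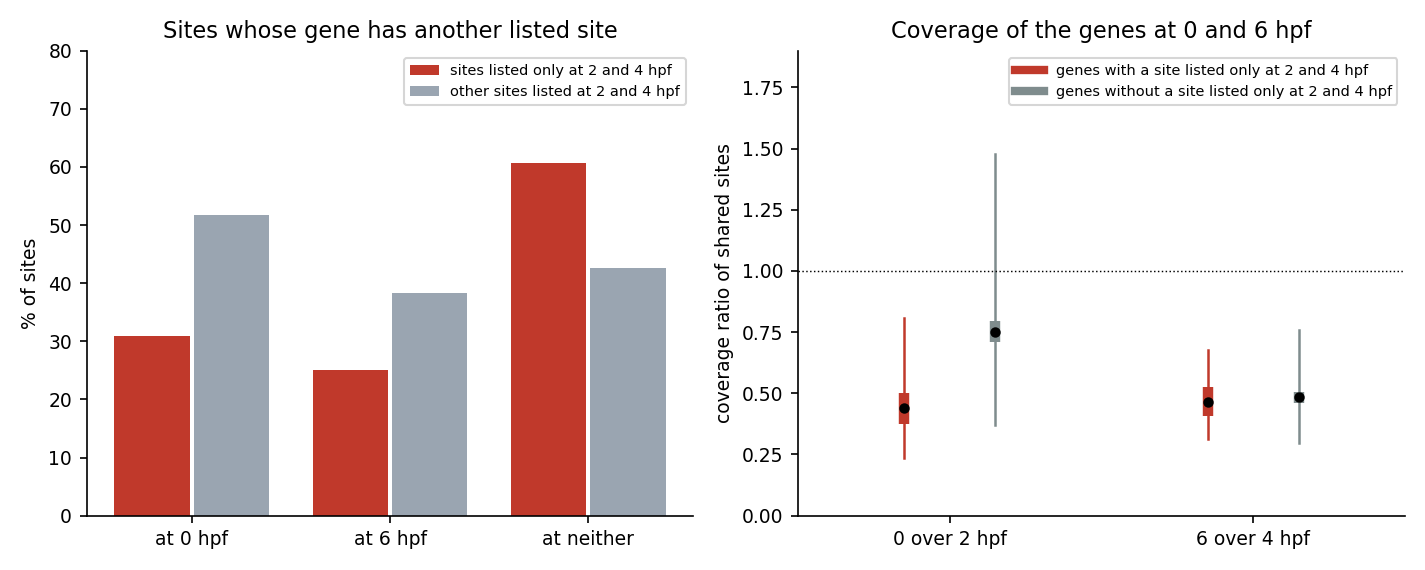
Left, share of the window sites (red) and the remaining shared sites (grey) whose gene has another site listed at 0 hpf, at 6 hpf or at neither stage, in % of sites. Right, coverage ratio per gene over sites listed at both stages, 0 over 2 hpf and 6 over 4 hpf, for genes with (red) and without (grey) a window site, with median (dot), its 95% interval (thick bar) and the quartiles (thin line), where the red and grey medians are 0.442 and 0.751 for 0 over 2 hpf and 0.464 and 0.487 for 6 over 4 hpf.

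Where another site of the gene was listed at both stages, a window site's coverage was scaled by the coverage ratio of such sites. The scaled value was set against the 20 reads a list requires. These genes have, by selection, at least 20 reads at another site at 0 or 6 hpf. The scaled coverage can be raised by this, and window sites of other genes have no scaled value. The shares thus do not give how often low coverage kept a site from a list. For 0 hpf the scaling was possible for 258 sites, of which 212 (82.2%) had a scaled coverage of at least 20 reads and 46 less. The 212 had a median level of 14.0% at 2 hpf, 120 of them (56.6%) were under 15%, and the 46 had a median of 27.4%. For 6 hpf, 208 of 238 sites (87.4%) reached 20 scaled reads, and 117 of the 208 (56.2%) were under 15% at 4 hpf. The 208 had a median level of 14.4% at 4 hpf and the other 30 had 17.0%, a smaller difference than for 0 hpf. Among sites listed at the stage, the observed coverage lay within 2 times of the scaled one for 84.7% of 1670 sites at 0 hpf and 95.2% of 945 sites at 6 hpf. These sites had all passed the minimums there, so the shares do not show how well the scaling holds for window sites, none of which is listed at 0 or 6 hpf. A site with enough reads can still be missing because its level was under 10% or because it failed another filter, and these cases cannot be told apart.

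A smaller number had both a level of 30% or more and at least 20 scaled reads, 24 for 0 hpf and 20 for 6 hpf. With at least 40 scaled reads there were 6 for 0 hpf and 10 for 6 hpf. The clearest for 0 hpf were in trioa (chromosome 19, 43436821), a guanine nucleotide exchange factor, with 35.2% of 88 reads at 2 hpf and 192 scaled reads, and in snx25, with 51.8% of 110 reads and 113 scaled reads. They included ubtf, a factor of RNA polymerase I, with 33.9% of 189 reads at 2 hpf and 68.3 scaled reads. For 6 hpf they included a site of UTP20 (35.5% of 186 reads at 4 hpf, 270 scaled reads), a ribosome biogenesis factor annotated on an unplaced scaffold, ing1 (38.4% of 242, 164 scaled), a chromatin reader, and trrap (41.1% of 158, 61.6 scaled), a scaffold of histone acetyltransferase complexes.

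Several of these genes had other sites with a low level at 6 hpf. In snx25 the site at 4143817 had levels of 86.7%, 87.0%, 81.5% and 19.0% in the order of the stages 0, 2, 4 and 6 hpf, and the site at 4222074 had 92.4%, 89.3%, 86.7% and 23.8%. The window site between them had 21.7% as early as 4 hpf, against 51.8% at 2 hpf. In ing1 the other site, at 9030385, had 74.9%, 75.3% and 16.2% in the order 2, 4 and 6 hpf, while the window site had 38.4% at 4 hpf and 51.3% at 2 hpf. In ezh2, which encodes the Polycomb histone methyltransferase, the other site had 77.9%, 70.1% and 14.6% in the same order, and the window site had 39.6% of 53 reads at 4 hpf, against 23.5% of 51 earlier. In UTP20 the site at 25627 had 25.3% at 6 hpf and 76.1% at 4 hpf. These are among the larger falls, and other genes of this group changed less or rose. The other site used for chd8 had 49.8% at 6 hpf and 58.5% at 4 hpf, and that for nbeaa had 18.9% and 16.0%.

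Over the 205 genes with a window site and another site listed at both 4 and 6 hpf, the median change of the other sites' level was -7.34 points (-9.18 to -5.70), 6 minus 4 hpf, and 175 of them (85.4%) were lower at 6 hpf. In the 1605 genes without a window site the change was -4.90 points (-5.40 to -4.30), with 75.4% lower. By the rule a window site is missing at 6 hpf, where a list requires a minimum level. A lower level at 6 hpf can thus take part in the choice of the genes, and nothing is read from the contrast. Between 0 and 2 hpf the other sites differed little, by 0.704 points (-0.263 to 1.49), 0 minus 2 hpf, in 227 genes with a window site and by 0.198 points (-0.0710 to 0.392) in 2141 genes without one.

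The genes with most other sites listed at both 0 and 6 hpf were trrap, CIT and magi1b with 4 each. Several had 3, and of these msh6 and tnikb had the window sites with the highest summed coverage. The window site of trrap (chromosome 12, 19084333) had 41.1% of 158 reads at 4 hpf and 40.7% of 150 at 2 hpf. Another trrap site, at 18976102, was listed at every stage from 0 to 8 hpf, with 68.5%, 57.8%, 58.4%, 51.1% and 18.1% in that order. In CIT, the citron kinase of cytokinesis, the window site had 11.7% of 145 reads at 4 hpf and 10.1% of 159 at 2 hpf, beside a site at 2581622 that kept 83.3% or more from 0 to 6 hpf. In tnikb, a kinase gene, the window site had 11.8% of 372 reads at 4 hpf and 12% of 368 at 2 hpf.

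Near the 10% minimum, listing separated neighbouring cytosines with like levels in msh6. The window site of msh6, a mismatch repair gene, at 49392753 on chromosome 13 had 10.0% of 1215 reads at 4 hpf and 13.0% of 1153 at 2 hpf. A site 4 nt away, at 49392757, had 11.8% of 1928 reads at 0 hpf, 12.2% of 1183 at 2 hpf and 10.0% of 1228 at 4 hpf, and was therefore not a window site. In magi1b, a scaffold protein of cell junctions, the window site at 19496729 on chromosome 11 had 14.5% of 172 reads at 4 hpf and 11.1% of 117 at 2 hpf. Its neighbour at 19496736 had unlike levels, with 36.7% of 169 reads at 4 hpf and 35.3% of 116 at 2 hpf, and was also listed at 6 hpf with 10.8% of 203.

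**Figure D4:**
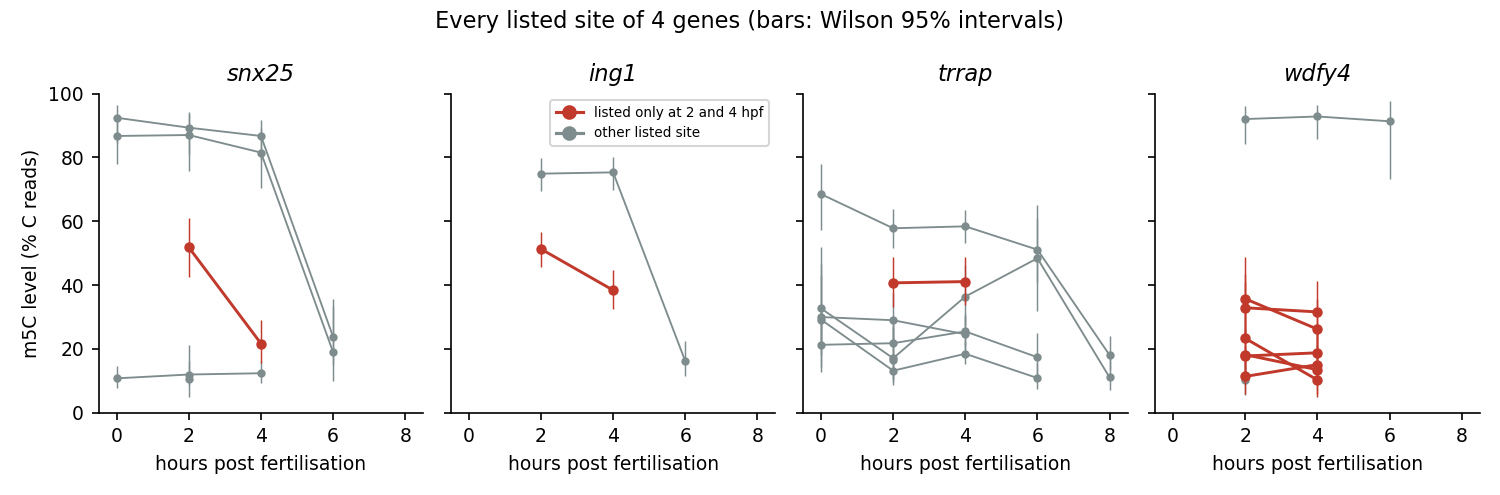
m5C level in % C reads against hours post fertilisation for every listed site of snx25, ing1, trrap and wdfy4, with libraries combined and Wilson 95% intervals as bars; red points are window sites, grey points other sites, and a stage without a point did not list the site. Grey sites of snx25 and ing1 with 75.3% to 86.7% at 4 hpf have 16.2% to 23.8% at 6 hpf, and the highest wdfy4 site has 91.3% at 6 hpf.

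Window sites were mostly single in their gene. Of the 871 genes, 768 had 1 window site, 87 had 2, 13 had 3, 2 had 4 and 1 had 6, so that 227 sites shared a gene with another. The 6 sites of wdfy4, a BEACH-domain protein gene on chromosome 13, spread over 78894 nt and had 10.3% to 31.6% at 4 hpf and 11.4% to 35.7% at 2 hpf. The most 3' of them by strand, at 31205419, had 31.6% of 98 reads at 4 hpf and 32.9% of 85 at 2 hpf, and directly beside it a site at 31205418 had 92.0%, 92.8% and 91.3% in the order 2, 4 and 6 hpf, the last on 23 reads. The F-box gene fbxl18 had 4 window sites with 10.4% to 34.8% at 4 hpf and 11.3% to 21.9% at 2 hpf, and atrn, the attractin gene, had 4 over 100754 nt with 15.6% to 19.4% at 4 hpf and 10.8% to 30.4% at 2 hpf. The 3 sites each of peli2, a ubiquitin ligase of immune signalling, and of znf687b, a zinc finger gene, were the only listed sites of their genes.

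Neighbouring window sites were rare. A site of any list lay within 10 nt of 36 window sites (3.62%) and of 148 remaining shared sites (4.12%). Counting only window sites that follow each other along the strand, 4 pairs lay within 10 nt. In cramp1l on chromosome 3, the sites at 15493160, 15493161 and 15493165 had 18.9%, 19.6% and 20.0% at 4 hpf and 35.8%, 36.0% and 34.0% at 2 hpf, each on 45 to 53 reads. Such neighbours are covered by the same reads and are not independent. In TRMT61B, a gene for a methyltransferase of mitochondrial RNA, adjacent sites differed, with 28.6% and 13.3% at 4 hpf and 28.3% and 13.3% at 2 hpf. The pair in mpzl3, 8 nt apart, had 16.1% and 16.7% at 4 hpf and 28.7% and 21.1% at 2 hpf.

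By position the set was spread over the genome. On the 25 numbered chromosomes lay 979 sites, on unplaced scaffolds 15 and on the mitochondrial genome 1, and 487 were on the plus and 508 on the minus strand. Window sites made up 14.4% of the shared sites of chromosome 23 and 25.7% of those of chromosome 6, the lowest and highest shares. The mitochondrial site, at position 1860 in AC024175.17, had 11.1% of 841 reads at 4 hpf and 13.5% of 1095 at 2 hpf. Another site of this gene had 87.0%, 84.3%, 87.9% and 87.4% in the order 0, 2, 4 and 6 hpf. Whether this mitochondrial transcript is an mRNA was not examined here. Of the 762 genes with a biotype in the RefSeq gene table, 761 were protein coding and 1 was a long non-coding RNA.

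Genes of chromatin regulation formed 1 of the larger groups. Of 17 gene lists matched by symbol, the chromatin modifiers and remodellers held 34 of the 871 genes with a window site (3.90%), and 88 of the 3182 genes with any site at both 2 and 4 hpf (2.77%). Their 43 window sites had median levels of 17.2% at 4 hpf and 17.5% at 2 hpf, 26 were lower and 17 higher at 4 hpf, and 0 were called. The remodeller gene chd8 had 1 site with 12.7% of 1046 reads at 4 hpf and 14.4% of 541 at 2 hpf. The histone methyltransferase gene setd8a had 12.2% of 181 reads at 4 hpf and 13.7% of 314 at 2 hpf, and ncor1, a co-repressor, 12.5% of 304 and 10.5% of 190.

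The ubiquitin system list held 31 genes (3.56%, against 4.21% of all genes with a shared site), the kinases, phosphatases and GTPase regulators 35 (4.02%, against 3.99%) and membrane transporters and channels 38 (4.36%, against 4.09%). The ubiquitin ligase gene rnf8, of the response to DNA damage, had 12.5% of 994 reads at 4 hpf and 13.3% of 866 at 2 hpf. Among the kinase and GTPase genes, csnk1a1, a casein kinase of the Wnt pathway, had 11% of 400 reads at 4 hpf and 11.8% of 797 at 2 hpf. The GTPase-activating protein gene arhgap11a stood out by level and depth, with 36.5% of 685 reads at 4 hpf and 47.7% of 262 at 2 hpf, a fall called by Fisher's exact test (adjusted p = 0.0362) and not by the beta-binomial test (0.452). The mitochondrial phosphate carrier gene slc25a3b had 10.6% of 2338 reads at 4 hpf and 11.8% of 1836 at 2 hpf.

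Genes that handle RNA were present in the set at about their share among all genes with a shared site. Splicing factors and RNA helicases held 18 genes (2.07%, against 1.92%), RNA decay, polyadenylation and modification 12 (1.38%, against 1.54%) and the ribosome and translation list 13 (1.49%, against 2.04%). The splicing gene sf3a1 had 11% of 1712 reads at 4 hpf and 12.2% of 1219 at 2 hpf. Both subunits of the PAN deadenylase, which shortens poly(A) tails, had a window site, pan2 with 13.7% of 401 reads at 4 hpf and 21.6% of 259 at 2 hpf and pan3 with 10.8% of 232 and 12.4% of 314. The gene cnot3a of the CCR4-NOT deadenylase had 13.7% of 423 reads at 4 hpf and 21.1% of 152 at 2 hpf. Within this list 11 of 18 sites were higher at 4 hpf and 7 lower, and 0 were called.

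Of the m5C writers and reader, NSUN6 had a window site and nsun2 and ybx1 had none. The NSUN6 site (chromosome 7, 74450737) had 12.3% of 106 reads at 4 hpf and 10.2% of 118 at 2 hpf, and another site of the gene was listed at 0 hpf only, with 10.2% of 59 reads. Their intervals reach from 4.74% to 20.5%, which includes levels below the minimum of the lists.

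The list of embryonic patterning pathways held 18 genes (2.07%, against 1.35%), with 21 sites at a median of 17.5% at both stages and 0 called. By its letters it includes HERC1, a ubiquitin ligase, and tgfbrap1, which are not patterning genes. In the BMP and Activin branch were the receptor genes bmpr1ba (22% of 246 reads at 4 hpf, 21.5% of 246 at 2 hpf), bmpr1ab (11.4% of 175 and 11.5% of 131), acvr2b (20.8% of 216 and 19.5% of 190), acvr2aa (10.8% of 148 and 11.8% of 153), acvr1l (17.4% of 115 and 14.0% of 214) and ACVR1B (27.8% of 72 and 32.7% of 52). The ligand gene bmp15, an oocyte growth factor, had 20.0% of 50 reads at 4 hpf and 36.4% of 55 at 2 hpf. In the Notch branch the receptors notch1a (11.8% of 544 reads at 4 hpf, 13.4% of 433 at 2 hpf) and notch2 (17.6% of 91 and 14.8% of 108) were members. In the Wnt branch the signal transducer dvl2 had 15% of 447 reads at 4 hpf and 13.5% of 326 at 2 hpf, and the co-receptors lrp5 and lrp6 had 16.4% of 67 and 13.8% of 80 at 4 hpf, against 23.8% of 63 and 16.1% of 112 at 2 hpf.

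Further sites of this list lay in genes of SOX transcription factors. In sox9b, a regulator of cartilage and neural crest, the sites at 63180242, 63180337 and 63184123 had 18.5%, 20.4% and 11% at 4 hpf and 12.4%, 31.4% and 10.3% at 2 hpf. A further sox9b site, at 63183945, was listed at 0 hpf too, with 59.6% of 47 reads there, 54.4% of 195 at the next stage and 48.9% of 233 at 4 hpf. The second sox11b site, at 30059984, had 28.4% of 370 reads at 4 hpf and 32.7% of 260 at 2 hpf, and both sites of this gene were window sites. The site of sox8b had 13.3% of 128 reads at 4 hpf and 18.3% of 60 at 2 hpf.

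The cell cycle, replication and repair list had 23 genes (2.64%, against 2.80%), with mcm5, a subunit of the replicative helicase, at 11% of 1341 reads at 4 hpf and 10.2% of 598 at 2 hpf. In the vesicle and endosome traffic list (25 genes, 2.87%, against 3.39%) 26 of 36 sites were lower at 4 hpf, at a median change of -4.11 points, and 1 of them, in snx25, was called. Sites lower at 4 hpf were 58.5% of all window sites, and the kinase list (26 of 37 sites), the zinc finger list (16 of 23) and the cell cycle list (17 of 25) had a like lean. The cytoskeleton list had 26 genes (2.99%, against 2.61%), among them pcm1, a centriolar satellite gene, with 12.6% of 437 reads at 4 hpf and 12.2% of 565 at 2 hpf. By its letters this list also includes genes such as ankrd52a that are not cytoskeleton genes, so its count is approximate. In the adhesion list (8 genes, 0.918%, against 1.10%) ctnna1, the alpha-catenin gene, had 10.3% of 2590 reads at 4 hpf and 13.3% of 1930 at 2 hpf. Chaperones held 3 genes (0.344%, against 0.723%), and the list of egg and germ cell genes held 0, against 17 genes with a shared site (0.534%). In at least 1 list were 322 of the genes with a window site (37.0%), against 37.1% of all genes with a shared site.

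**Figure D5:**
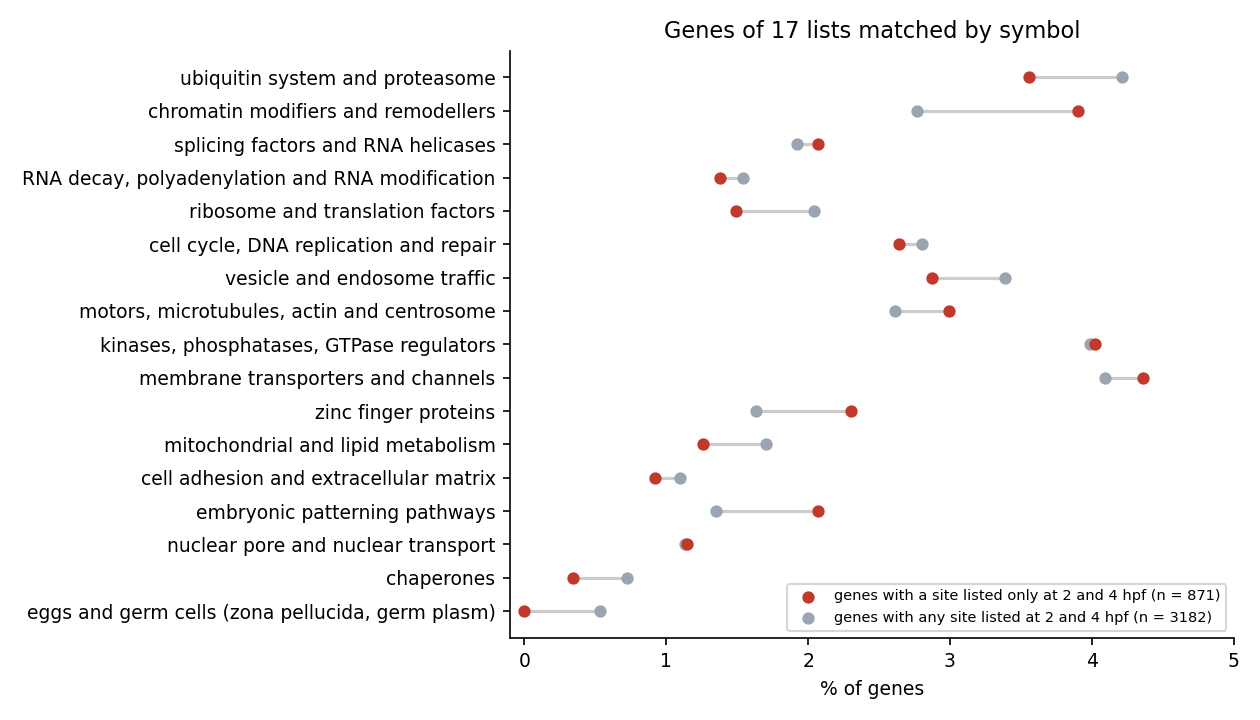
Share of genes in each of 17 lists matched by symbol, in % of the 871 genes with a window site (red) and in % of the 3182 genes with any site listed at both 2 and 4 hpf (grey), which include the red ones. Red lies to the right of grey most for chromatin modifiers (3.90% and 2.77%) and to the left most for the ubiquitin system (3.56% and 4.21%), and no test was made.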

How the data were processed

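Reads were processed by the authors. They were trimmed with cutadapt and Trimmomatic and mapped with HISAT2 (2.10, per the submitters' processing notes) to the converted Zv9 genome, and the rest with Bowtie2 to converted Ensembl transcripts, so that genes with close copies are less certain. Per the study's methods, noise filters were applied and the replicates combined. The deposited coverage is a read count (C and T), the deposited level a fraction, given here in percent, and the deposited p-value of each site was not used. The lowest values in the lists were 20 reads and 10.0%. Level times coverage was whole within 1e-06 of the coverage at all 21214 values, and gave C reads. The total depth of a library is unknown here, and precision follows from the coverage of each site.

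Members and lists were chosen with earlier results of these data known. Sites were matched by chromosome, position and strand. Intervals are 95%, from order statistics for medians and Wilson's method for shares. Fisher's exact test (scipy 1.17.1, python 3.11.15) was two-sided, and a beta-binomial z test used a correlation of 0.00232. This correlation was fitted to the differences between 4 and 2 hpf over all shared sites, and so takes up any widespread change. A logistic model across replicates was replaced by Fisher's exact test because the lists are pooled. Fisher's exact test and the beta-binomial test were both run on simulated data. Only Fisher's exact test, on data without extra spread, was held to a pass criterion there. Scaled coverage is a site's coverage times the summed coverage ratio of its gene's other sites listed at both stages. Gene lists were matched by symbol or its first letters, and a gene can be in several. Of 871 gene IDs, 721 (82.8%) were in the gene name table. Biotypes come from a RefSeq table of another assembly. Named sites were those with the highest coverage, the largest changes with at least 100 reads, up to 6 calls per direction, those nearest 50%, genes with most members or most other sites at 0 and 6 hpf, neighbours within 10 nt, up to 4 sites per list, all patterning sites, and NSUN6. Some sites that this rule selects are not reported here. Other sites were named after their values were seen (members at 50% or more at 2 hpf, those with scaled coverage, ezh2 and the mitochondrial site). Alternatives were other minimums of coverage, level and C reads, other limits, matching within 2 nt and weighted means. Positions are those of Zv9 as deposited, and genic location and the sequence around the sites were not analysed here.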

Additional observations from a re-analysis of the deposited data

How the results depend on the processing

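Of the values recomputed under alternatives, 37 stayed within their limits, 29 moved and 0 changed direction. Under a minimum of 50 reads the median level was 14.9% at 4 hpf and 15.9% at 2 hpf, and the median coverage 133 and 107 reads. With at least 100 reads, 377 sites were left, with levels of 13.4% and 14.1%, a change of -0.370 points, coverage of 253 and 202 reads, another site of the gene at 0 hpf in 38% and at 6 hpf in 30.4% of genes, and 1 call higher. Without an upper limit the levels were 17.1% at 4 hpf and 18.5% at 2 hpf. With levels under 30% at 4 hpf they were 14.7% and 15.8%, with coverage of 111 and 91.0 reads. With at least 20% at both stages, 270 sites were left, with 31.3% and 32.4%, a change of -1.81 points, coverage of 73.5 and 61.0 reads, and shares of 24.6% at 0 hpf and 21.1% at 6 hpf. The beta-binomial test called 0 higher and 4 lower. Counting a site within 2 nt in another list as listed left 983 sites and moved no value beyond its limit. Most of these settings change which sites are counted, and so the medians.

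No paired analysis was possible because the lists combine both libraries of a stage. For the same reason leaving out a replicate was not run, nor was the motif comparison, which needs the sequence of the build. Coverage limits what a missing site means: at 20 reads, the lowest coverage in the lists, a level near 10% rests on few C reads. Absence from a list was not separated from a level under 10% or a failed filter.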
